A study of Mus musculus with 8 samples.

Results

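Mitochondrial ribosomal protein genes were taken as every row of the gene count table whose symbol was Mrpl or Mrps followed by a number and at most 1 letter, with at least 10 reads in each of the 8 libraries. All 78 genes with such a symbol met the minimum, out of 57132 rows, and the lowest count of any of them in any library was 480 reads. By symbol, 49 belong to the large subunit (Mrpl) and 29 to the small subunit (Mrps). All 78 were among the 16588 genes tested.

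The mitochondrial ribosome, or mitoribosome, sits inside the mitochondrion and translates the few messenger RNAs of the mitochondrial genome, which encode core subunits of the respiratory chain and ATP synthase. Its ribosomal RNAs are transcribed from the mitochondrial genome, whereas its proteins are encoded in the nucleus, made in the cytosol and imported. The large subunit forms peptide bonds and the small subunit decodes the messenger RNA. Some of the proteins have counterparts in bacteria, from which mitochondria descend, and others are found only in mitochondria.

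The libraries came from tumours of KPC, a mouse pancreatic cancer model, grown under the skin of mice. Mice in the PDT group received Ce6@D4-EV followed by light, which is photodynamic therapy (a light-activated drug treatment), and the control group received PBS. There were 4 libraries in each group, the groups share the KPC tumour, and the labels give no strain, age or time of harvest. No arm with Ce6@D4-EV alone or light alone was analysed here. The labels call the tissue sorted without naming a gate, and they do not say that the 4 libraries of a group came from separate mice, so p-values measure the spread between these libraries, which may be technical. Ribosomal RNA was removed before directional libraries were made.

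The libraries held 35742024 to 48804713 reads assigned to genes. PBS replicate 1 stood apart from the other 7 on the first principal component of all tested genes, at -111.5 against -8.53 to 4.32 in the other PBS libraries and 16.1 to 37.2 in PDT. Markers of several cell types were present: those of tumour epithelium (Krt8, Krt18, Krt19, Epcam, Cdh1 and Krt7), fibroblasts, macrophages and red blood cells were all detected. The table gives bulk RNA, in which more cells of a type and more RNA per cell cannot be told apart.

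The mean level of the mitoribosomal protein genes was slightly higher in PDT than in PBS tumours in both subunits, with overlap between the groups. None of the 78 genes passed the threshold in edgeR, the main test, which called 0.235% of all tested genes. DESeq2 called 12 of the 78, beside 5.24% of all tested genes. The 78 genes took 0.372% ± 0.0168 of all reads in PBS and 0.432% ± 0.0278 in PDT (SD, n = 4 each). The 49 large subunit genes took 0.258% ± 0.0128 and 0.298% ± 0.0193, and the 29 small subunit genes 0.113% ± 0.00510 and 0.133% ± 0.00897. As mean log2 CPM (read counts scaled to a common library total, with TMM scaling between libraries), the large subunit genes were at 5.51, 5.39, 5.47 and 5.67 in PBS replicates 1 to 4 and at 5.94, 5.69, 5.63 and 5.89 in PDT replicates 1 to 4. The small subunit genes were at 5.05, 5.003, 5.05 and 5.31 in PBS and at 5.52, 5.24, 5.24 and 5.49 in PDT. For both subunits PDT replicates 1 and 4 were the highest libraries, and PBS replicate 4 lay between PDT replicates 2 and 3 for the large subunit and above both for the small subunit, so the groups overlapped.

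**Figure D1:**
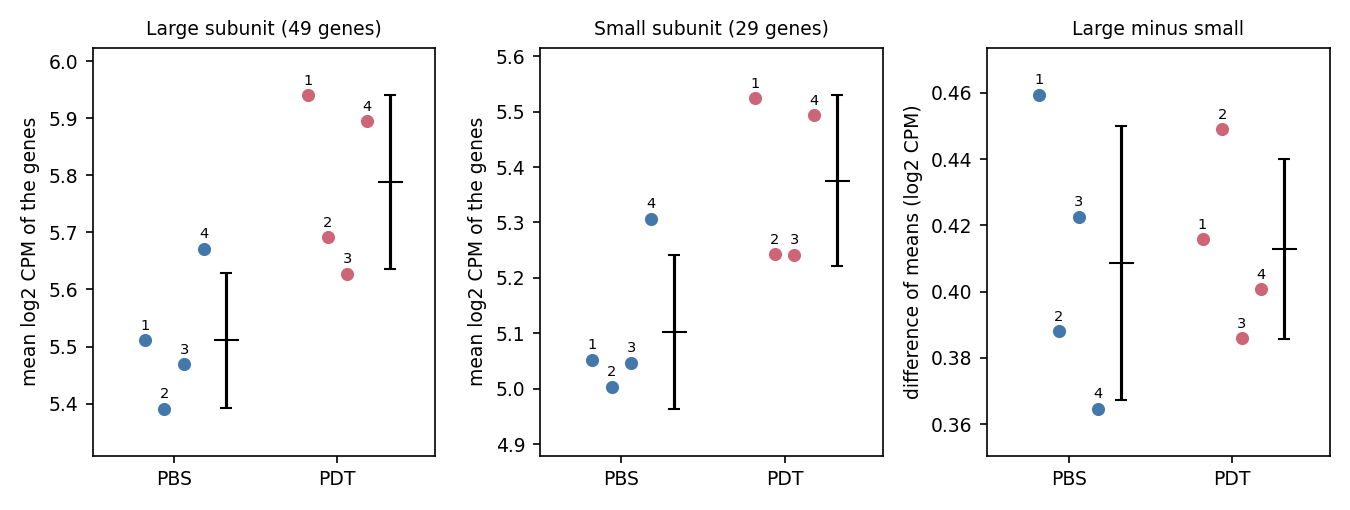
Mean log2 CPM (vertical axes) of the 49 large subunit genes, of the 29 small subunit genes, and the difference between them, for each PBS (blue) and PDT (red) library with its replicate number; bars are mean ± SD of 4 libraries. Both subunits are highest in PDT 1 and PDT 4, PBS 4 overlaps PDT 2 and PDT 3, and the difference stays between 0.36 and 0.46 in every library.

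The balance between the subunits differed little between the groups when taken as the mean over genes, and more when taken over the median gene. The mean log2 CPM of the large subunit genes minus that of the small subunit genes was 0.46, 0.39, 0.42 and 0.36 in PBS and 0.42, 0.45, 0.39 and 0.40 in PDT, or 0.41 ± 0.04 and 0.41 ± 0.03 (SD, n = 4 each). These means differed by less than the spread between libraries. Taken over the median gene instead, the difference was 0.64, 0.54, 0.49 and 0.45 in PBS and 0.46, 0.36, 0.43 and 0.27 in PDT, or 0.53 ± 0.08 and 0.38 ± 0.09 (SD, n = 4 each). The groups overlapped, since PDT replicate 1 was above PBS replicate 4, but in this form the means differed by more than the SD of either group. Per kilobase of the longest annotated transcript, which allows levels of different genes to be compared, the median large subunit gene stood at 23.2 ± 2.18 CPM per kb in PBS and 27.8 ± 2.42 in PDT, and the median small subunit gene at 19.99 ± 2.31 and 23.3 ± 2.92. The ratio of the large to the small subunit median was 1.17 ± 0.0452 in PBS and 1.20 ± 0.0544 in PDT. With the median transcript length of each gene it was 1.39 ± 0.107 and 1.43 ± 0.109.

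Levels per length ranged widely between genes whose proteins are present once or a few times per ribosome. As the mean over all 8 libraries the highest were Mrpl52, a protein of the central protuberance, at 147 CPM per kb, Mrps21, the homologue of bacterial S21, at 122, and Mrpl53, a mitochondria-specific large subunit protein, at 112. Mrpl12, a stalk protein that contacts translation factors, stood at 100.4 and Mrps24, the homologue of bacterial S3, at 99.4. The lowest were Mrpl47, the homologue of bacterial L29 near the tunnel exit, at 5.86 and Mrps25, a mitochondria-specific small subunit protein, at 6.20. Mrps21 owed its place to PDT: it stood at 68.4 CPM per kb in PBS, below 6 other genes, and at 175 in PDT, the highest of the 78. Mrpl52 was the highest in PBS, at 134. These values rest on the longest annotated transcript, so a gene with a long rarely used transcript ranks low. With the median transcript length instead, Mrps25 stood at 59.2 CPM per kb and Mrpl47 at 13.1, and Mrps30 was the lowest at 9.44. Mrpl52 stayed the highest, at 301.

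Gene by gene, edgeR's quasi-likelihood test with Benjamini-Hochberg adjustment over all tested genes called 39 of 16588 genes at an adjusted p under 0.05 (0.235%) and none of the 78. At an adjusted p under 0.1 it held 388 genes (2.34%), 4 of them mitoribosomal: Mrps21, Mrpl51, Mrpl41 and Mrpl48. At an unadjusted p under 0.05, 28 of the 78 genes were higher in PDT (16 large and 12 small subunit genes, 35.9%) and none was lower, beside 8.63% of all tested genes higher and 7.87% lower, together 16.5%. The fitted log2 fold change, PDT minus PBS, was above 0 for 67 of 78 genes (43 of 49 large and 24 of 29 small), beside 49.8% of all tested genes. Its median was 0.23 over the 78 genes, 0.24 over the large and 0.22 over the small subunit genes, against -0.002 over all tested genes. In 11 of the 78 genes (9 large and 2 small, Mrps21 and Mrps7) every PDT library was above every PBS library, and in none the reverse. Over all tested genes these shares were 5% and 5.12%. DESeq2, run on the same filtered counts with its own scaling and test, called 12 of the 78 (all higher) among 869 genes (5.24%). Limma-voom with sample quality weights called 1, Mrps21, among 167 (1.01%). In edgeR 9 of the 78 were called without the filter on low counts (1.95% of all genes), 3 without PBS replicate 4 (0.712%) and 2 without PDT replicate 2 (0.656%). Without PBS replicate 1, the library that stood apart, none was called, 66 of 78 were above 0 and the median was 0.29.

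**Figure D2:**
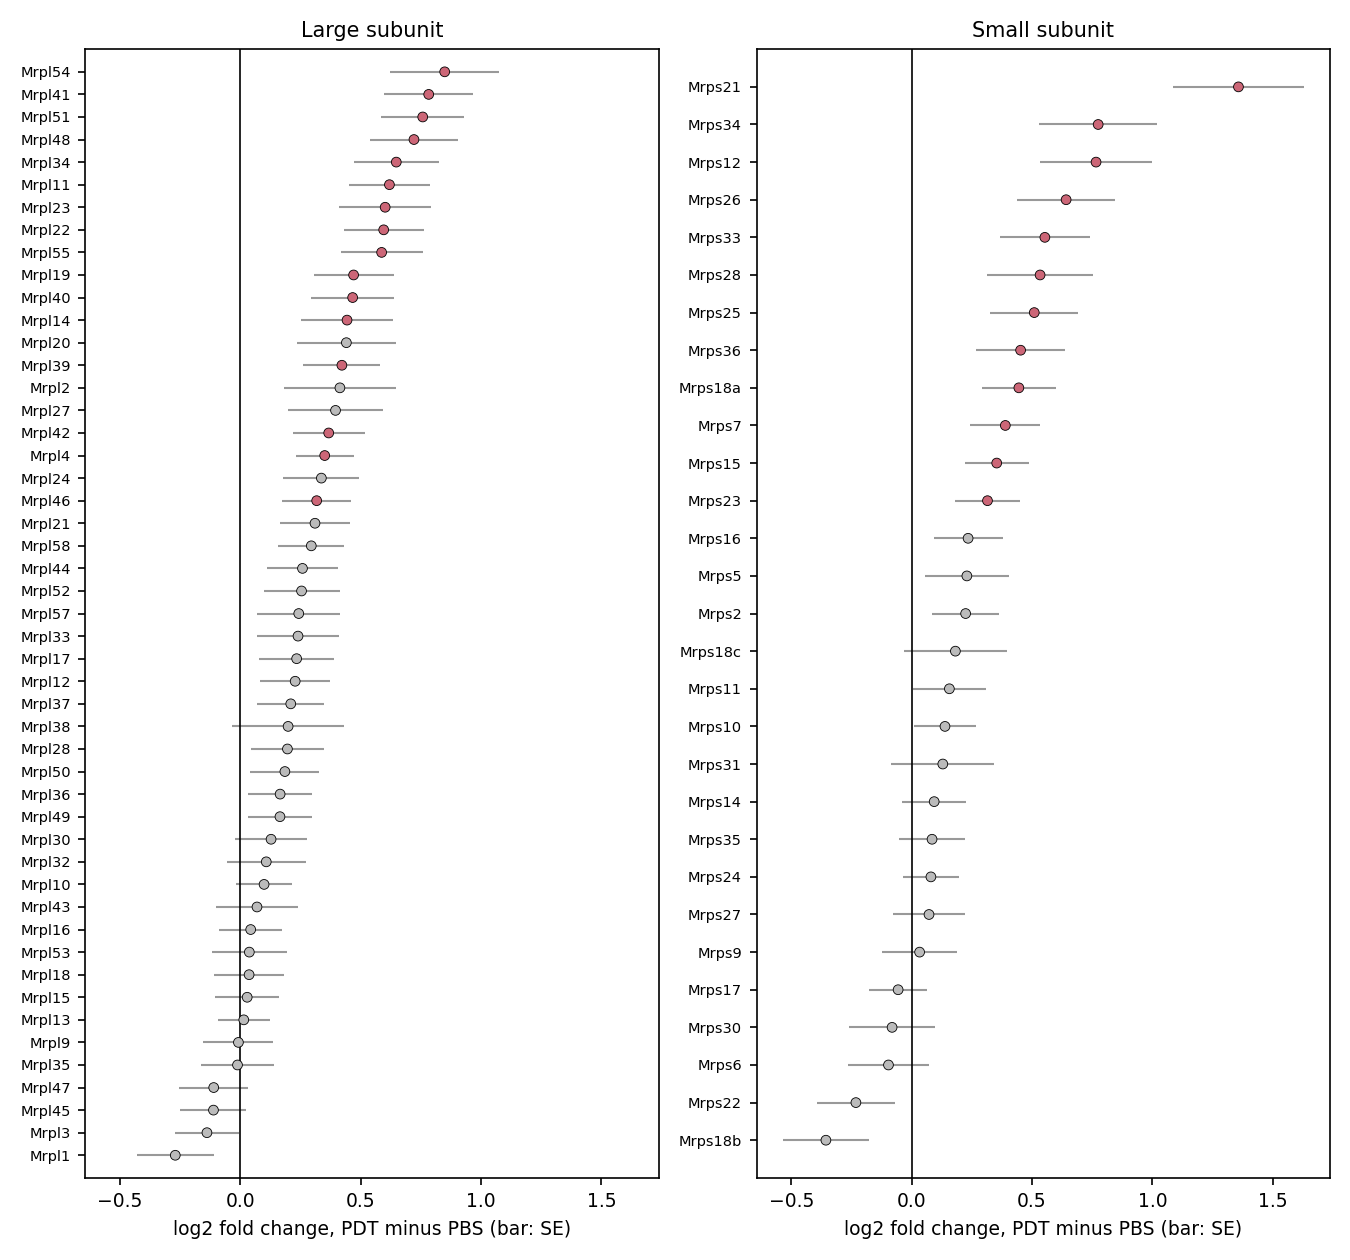
Log2 fold change (PDT minus PBS, horizontal axis) of each of the 49 large and 29 small subunit genes with its standard error (bar). Red points have an unadjusted edgeR p under 0.05, 28 genes, all to the right of 0; no gene passed the adjusted threshold, and 67 of the 78 lie above 0.

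The spread between libraries ran along 1 axis. In a principal component analysis of the 78 genes the first component held 68.9% of the variance and 67 genes loaded on it with the same sign. PDT replicates 4 and 1 lay at 3.42 and 2.74, PDT replicates 3 and 2 at 0.65 and 0.24, PBS replicate 4 at 0.20, and PBS replicates 1, 3 and 2 at -2.19, -2.27 and -2.80. The libraries of each group thus differed among themselves along the component that separates the group means. Within groups the median SD of log2 CPM of these genes was 0.21 in PBS and 0.22 in PDT. It was 0.33 and 0.30 over all tested genes, which include genes with few reads. Each of the 78 had at least 480 reads in every library, and genes of like level were not compared.

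Among the large subunit genes, the 5 with the highest fold changes were Mrpl54, Mrpl41, Mrpl51 and Mrpl48, which have no bacterial counterpart, and Mrpl34, the homologue of bacterial L34. Mrpl54 stood at 21.6, 21.5, 22.7 and 38.6 CPM in PBS and at 50.4, 36.3, 39.7 and 61.4 CPM in PDT. PBS replicate 4 was above PDT replicate 2, so its groups overlapped, and the log2 fold change was 0.85 ± 0.23 (SE, adjusted p = 0.103 in edgeR). Mrpl41 stood at 22.1, 21.0, 17.7 and 27.0 CPM in PBS and at 44.3, 29.9, 31.9 and 45.0 in PDT. Every PDT library was above every PBS library, and the log2 fold change was 0.78 ± 0.18 (SE, adjusted p = 0.0885 in edgeR). Mrpl51 likewise did not overlap, at 47.4, 43.9, 42.6 and 52.4 CPM in PBS and 90.0, 60.7, 64.1 and 100.1 in PDT, a log2 difference of 0.76 ± 0.17 (SE, adjusted p = 0.0803 in edgeR). Mrpl48 encodes a protein of the central protuberance. It stood at 51.8, 32.5, 32.6 and 52.1 CPM in PBS and at 80.2, 64.4, 62.8 and 71.1 in PDT. Its PBS libraries formed a low pair and a high pair, both under all PDT libraries, and the log2 difference was 0.72 ± 0.18 (SE, adjusted p = 0.0985 in edgeR). Mrpl34 overlapped by a hair, with PBS replicate 4 at 48.7 CPM and PDT replicate 2 at 48.6, and a log2 difference of 0.65.

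Genes of the large subunit's functional regions lay within the range of the other large subunit genes. The stalk recruits translation factors, and its 3 genes had log2 differences of 0.10 (Mrpl10), 0.62 (Mrpl11) and 0.23 (Mrpl12). Mrpl11 stood at 42.2, 38.5, 48.2 and 62.3 CPM in PBS and at 83.4, 65.0, 63.5 and 81.9 in PDT, with no overlap (log2 difference 0.62 ± 0.17, SE, adjusted p = 0.109 in edgeR). Mrpl10 and Mrpl12 overlapped between the groups. The 7 genes of the central protuberance, which contacts the small subunit, had a median log2 fold change of 0.32, and the 8 genes around the exit of the peptide tunnel 0.30. Among the latter, Mrpl45, which tethers the ribosome to the inner membrane, was at 75.5 to 103.9 CPM in PBS and 71.4 to 84.6 in PDT, a log2 difference of -0.11. Mrpl58 carries a peptidyl-tRNA hydrolase activity that can rescue stalled ribosomes. It stood at 37.5 to 41.0 CPM in PBS and 42.6 to 60.4 in PDT, every PDT library above every PBS library. Its log2 difference was 0.29 ± 0.14 (SE, adjusted p = 0.311 in edgeR). Large subunit genes with a bacterial homologue (30 genes) had a median of 0.23 and those without (19 genes) 0.26.

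The lowest large subunit genes were Mrpl1, Mrpl3, Mrpl45, Mrpl47 and Mrpl35, with log2 differences of -0.27 to -0.01, none called. The Mrpl1 protein forms the mobile arm beside the tRNA exit site. Mrpl1 stood at 49.9, 50.8, 36.2 and 49.8 CPM in PBS and at 44.3, 43.3, 36.6 and 30.6 in PDT. PBS replicate 3 was as low as the PDT libraries, and the log2 difference was -0.27 ± 0.16 (SE, adjusted p = 0.442 in edgeR). Mrpl35 was below 0 by 0.01 only, and its sign turned under several other settings.

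Among the small subunit genes Mrps21 had the highest fold change and the smallest adjusted p of the 78. It stood at 28.3, 26.6, 23.5 and 55.2 CPM in PBS and at 89.9, 64.6, 73.4 and 114 CPM in PDT. PBS replicate 4 was well above the other PBS libraries, and every PDT library was above it. The log2 fold change was 1.36 ± 0.27 (SE, adjusted p = 0.0597 in edgeR), and the adjusted p ranged from 5.9e-05 (DESeq2) to 0.184 (edgeR without PDT replicate 1) over the alternatives. Mrps34, needed for the stability of the small subunit, Mrps12, a protein of the decoding centre, and Mrps26, a mitochondria-specific protein, followed with log2 differences of 0.77, 0.77 and 0.64. Their adjusted p-values in edgeR were 0.149, 0.138 and 0.150, and in all 3 genes the highest PBS library lay above the lowest PDT library. Small subunit genes with a bacterial homologue (15 genes) had a median of 0.18 and those without (11 genes) 0.32.

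**Figure D3:**
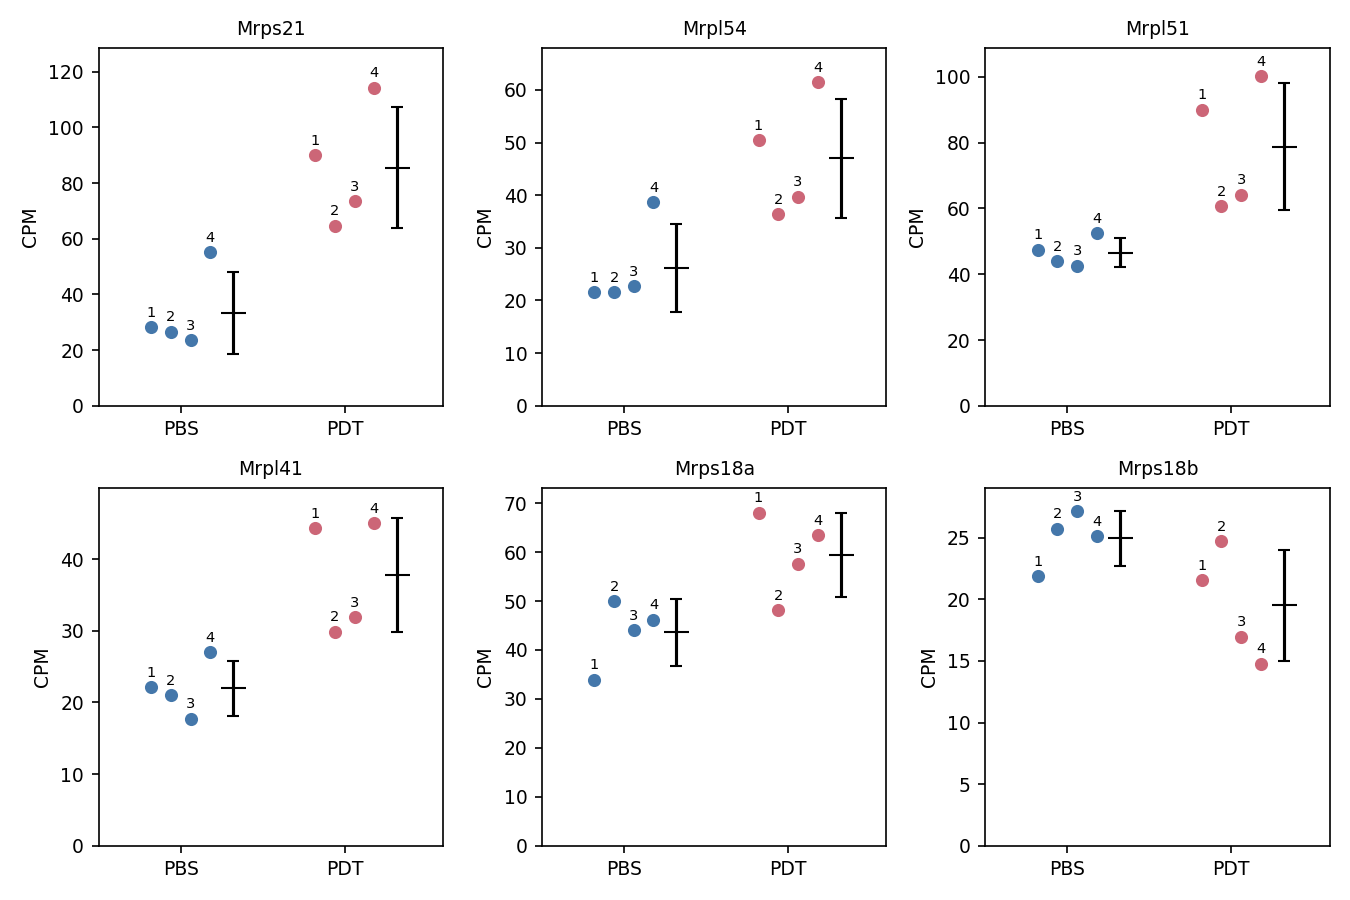
CPM (vertical axes, from 0) of 6 mitoribosomal protein genes in each PBS (blue) and PDT (red) library, with replicate numbers and mean ± SD of 4 libraries. Mrps21, Mrpl51 and Mrpl41 do not overlap between the groups, and Mrpl54 overlaps through PBS 4. The PDT mean of Mrps18a lies above its PBS mean and that of Mrps18b below, both with overlap between the groups.

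The 3 Mrps18 genes, paralogues whose proteins sit in different places, had different fold changes. The Mrps18a protein is part of the large subunit despite its name, Mrps18c is the counterpart of bacterial S18, and Mrps18b is a further small subunit protein. Mrps18a stood at 34.0, 50.0, 44.1 and 46.2 CPM in PBS and at 68.1, 48.1, 57.6 and 63.5 in PDT. Its log2 difference was 0.45 ± 0.16 (SE, adjusted p = 0.182 in edgeR). Mrps18b was the lowest of the 78 by fold change. It stood at 21.9, 25.7, 27.2 and 25.1 CPM in PBS and at 21.5, 24.7, 17.0 and 14.8 in PDT. The log2 difference was -0.36 ± 0.18 (SE, adjusted p = 0.354 in edgeR). Mrps18c differed by 0.18. The log2 ratio of Mrps18a to Mrps18b was 0.63, 0.96, 0.70 and 0.88 in PBS and 1.66, 0.96, 1.76 and 2.10 in PDT. It was higher in PDT by 0.83 on average, and PDT replicate 2 was level with PBS replicate 2. A two-sided exact permutation test gave p = 0.0286, the smallest that 4 against 4 libraries allow, and 0.0857 after Benjamini-Hochberg adjustment over the 3 pairs, so the difference did not pass. The ratios of Mrps18a to Mrps18c and of Mrps18c to Mrps18b gave adjusted values of 0.486 and 0.214 in the same test. These ratios were computed after the fold changes of the 3 genes had been seen.

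Another small subunit symbol of the large subunit, Mrps30, differed by -0.08 in log2, and Mrps36, whose protein is now known as a component of the 2-oxoglutarate dehydrogenase complex, by 0.45 (adjusted p = 0.247 in edgeR). Moving Mrps18a and Mrps30 to the large subunit and leaving out Mrps36 gave a large minus small difference of 0.37 in both groups. The remaining low small subunit genes were Mrps22 (log2 difference -0.23) and Mrps6 (-0.10), neither called.

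To show the sequence next to the values, the 250 bases before the RefSeq gene start (build GRCm38.p6) are given for 4 genes: Mrps21 and Mrpl51, among the highest in fold change, and Mrpl45 and Mrps18b, among the lowest. Capitals mark matches, on either strand, to GCGCA and GCGC with any 1 base between them (the motif of NRF1, a nuclear respiratory factor), CCGGAAG (the ETS motif, bound by GABP) or AAGATGGC (the YY1 motif), factors known as regulators of nuclear genes for mitochondrial proteins. The 3 motifs do not overlap in letters with each other in these 4 sequences. The windows are chr3:95871515-95871764 on the minus strand, chr6:125191950-125192199 on the plus strand, chr11:97315466-97315715 on the plus strand and chr17:35916441-35916690 on the minus strand.
Mrps21: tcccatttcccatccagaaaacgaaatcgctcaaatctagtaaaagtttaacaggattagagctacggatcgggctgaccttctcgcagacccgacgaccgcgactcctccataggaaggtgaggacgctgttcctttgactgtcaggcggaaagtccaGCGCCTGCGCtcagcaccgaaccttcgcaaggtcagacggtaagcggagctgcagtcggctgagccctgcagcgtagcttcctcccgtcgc
Mrpl51: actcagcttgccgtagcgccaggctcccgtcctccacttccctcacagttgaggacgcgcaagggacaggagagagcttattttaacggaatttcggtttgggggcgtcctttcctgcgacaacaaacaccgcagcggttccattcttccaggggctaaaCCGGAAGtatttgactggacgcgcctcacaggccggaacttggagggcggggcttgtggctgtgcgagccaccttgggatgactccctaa
Mrpl45: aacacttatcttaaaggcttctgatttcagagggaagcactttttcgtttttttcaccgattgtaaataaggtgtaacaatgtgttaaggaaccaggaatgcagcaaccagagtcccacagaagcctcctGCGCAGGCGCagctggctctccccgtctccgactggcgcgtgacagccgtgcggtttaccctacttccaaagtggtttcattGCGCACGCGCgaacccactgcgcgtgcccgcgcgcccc
Mrps18b: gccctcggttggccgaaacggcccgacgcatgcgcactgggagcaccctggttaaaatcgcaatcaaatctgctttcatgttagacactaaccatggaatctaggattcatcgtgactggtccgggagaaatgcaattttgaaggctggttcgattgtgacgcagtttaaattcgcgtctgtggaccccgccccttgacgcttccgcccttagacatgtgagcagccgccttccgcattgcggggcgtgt
Mrps21 has 1 NRF1 match that begins 91 bases before the start, Mrpl51 has 1 ETS match that begins 90 bases before it, Mrpl45 has 2 NRF1 matches that begin 120 and 38 bases before it, and Mrps18b has no match to the 3 spellings. The matches thus occur in genes with high and with low fold changes.

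RefSeq promoters were matched by symbol for 69 of the 78 genes (43 large and 26 small), 1 per gene. An NRF1 match lay in 10 of 69 (14.5%), against 3.86% of all 27018 promoters and 7.32% of those of tested genes. An ETS match lay in 17 (24.6%), against 7.06% and 12.6%, and a YY1 match in 4 (5.80%), against 1.59% and 1.91%. Of the 10 genes with an NRF1 match, 9 belong to the large subunit (of 43) and 1 to the small subunit (of 26). The median log2 fold change was 0.23 in the 29 genes with any of the motifs and 0.23 in the 40 without. These 3 spellings and this window were kept from 10 spellings and 2 windows looked at, and a match is a description of letters, not of binding.

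The fold changes of the 78 genes moved with GC content and transcript length, both taken from the longest annotated transcript of each gene. Across the 78 genes, which share libraries and are not independent replicates, Spearman's rho of the log2 fold change was 0.41 with GC content and -0.32 with length, and 0.26 and -0.23 across all tested genes with a length. The shortest 26 genes (488 to 1138 bases) had a median of 0.40, the middle 26 (1219 to 2741) 0.23 and the longest 26 (2799 to 7300) 0.12. A correction for GC content and length per library, as first run, also moved each library's mean: it gave a median of 0.09 over the 78 genes and -0.08 over all tested genes, with 56 of the 78 above 0 (40.1% of all genes). At an unadjusted p under 0.05, 14 were then higher (4.82% of all genes) and 3 lower. Centred so that the scaling between libraries stayed, a form chosen after that result was seen, it gave 0.19 over the 78 genes and 0.01 over all, with 59 above 0 (51.2% of all genes), 20 higher (7.96% of all genes) and 1 lower. Neither form called any of the 78. Mrps21 stayed the highest of the named genes in the centred form, at 1.23 ± 0.25 (SE, adjusted p = 0.0863 in edgeR), and Mrpl51 and Mrpl48 were at 0.85 and 0.86. The correction took these 2 genes as long, at 3427 and 4285 bases. Their levels were 18.3 and 13.1 CPM per kb with the longest transcript and 73.3 and 65.8 with the median transcript length. A correction with median transcript lengths was not run. The stalk median went from 0.23 to -0.02 and that of the central protuberance from 0.32 to 0.11, whereas the tunnel exit stood at 0.27.

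**Figure D4:**
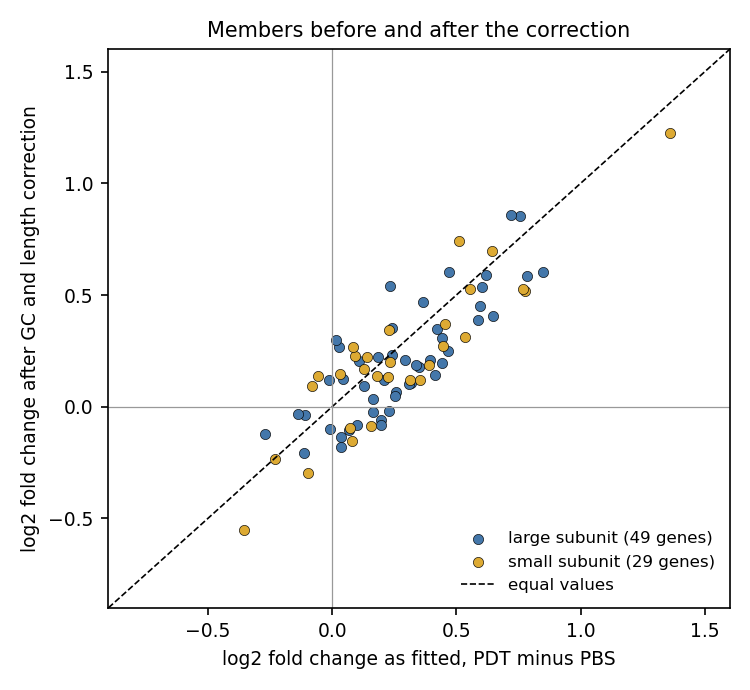
Log2 fold change (PDT minus PBS) of each mitoribosomal protein gene as fitted (horizontal axis) and after the centred correction for GC content and length (vertical axis), large subunit in blue and small in yellow. Most points lie below the dashed line of equal values, and the median of the 78 goes from 0.23 to 0.19.

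Signs of cell makeup differed between the groups as well. The summed level of 10 macrophage markers, all 10 of them detected, was 2092 to 4072 CPM in PBS and 4932 to 6630 in PDT, with no overlap. Summed markers of T cells (6 genes, 6.31 to 11.4 CPM in PBS and 13.6 to 17.8 in PDT) and of NK and cytotoxic cells (6 genes, 2.16 to 6.65 and 11.01 to 16.7) did not overlap either, at low levels. Those of neutrophils (6 genes) summed to 52.5 to 158 CPM in PBS and 116 to 395 in PDT, with overlap, and their mean log2 CPM was 2.78 to 3.53 and 3.66 to 5.04, without. Skeletal muscle markers (6 genes, 1 of them at 0 in every library) summed to 48.3 to 1272 CPM in PBS and 138 to 3144 in PDT. Those of tumour epithelium (6 genes) were 3475 to 7117 CPM in PBS and 3038 to 6109 in PDT, those of proliferation (8 genes) 616 to 757 and 615 to 770, and those of fibroblasts (7 genes) 7014 to 14482 and 11508 to 13121. Erythroid markers (5 genes) were highest in PBS replicate 4, at 4437 CPM, against 590.5 to 2638 in the other 7 libraries. The part of these differences in the levels of the mitoribosomal genes was not tested.

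The proteins of the cytosolic ribosome showed a like median. Over 79 of their genes it was 0.25 as fitted, with 1 called (0.235% of all tested genes), and 0.07 after the centred correction, against 0.19 for the mitoribosomal genes. Of the 79, 63 were above 0 and 16 below. At an unadjusted p under 0.05, 21 (26.6%) were higher and none lower, beside 8.63% and 7.87% of all tested genes. In 1 of the 79 every PDT library was above every PBS library, beside 5% of all tested genes. The difference between the lists was not tested.

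Genes that work with the mitoribosome were taken from lists, and edgeR called none of the genes tested (0.235% of all genes were called). The 5 mitoribosomal proteins with no Mrp symbol had log2 differences of -0.38 to 0.51. Chchd1, a small subunit protein, was at 77.8 to 106.6 CPM in PBS and 116.7 to 159.6 in PDT, with no overlap (log2 difference 0.51 ± 0.14, SE, adjusted p = 0.115 in edgeR). Ptcd3, also of the small subunit, was at 72.5 to 81.3 CPM in PBS and 50.7 to 67.9 in PDT, with no overlap in the opposite direction (-0.38 ± 0.12, SE, adjusted p = 0.166 in edgeR). Dap3, a GTP-binding small subunit protein, differed by 0.11.

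The 28 assembly and ribosomal RNA modification genes had a median of 0.11, with 20 above 0. It was 0.02 after the centred correction and -0.06 with the form that moved each library's mean, under which the median of all genes was -0.08. Mtg2 and Gtpbp6, GTPases that act on the large subunit, had log2 differences of 0.61 and 0.84 (adjusted p = 0.188 and 0.194 in edgeR). In these 2 genes every PDT library was above every PBS library, beside 5% of all tested genes. In 2 others, Trub2 and Dhx30, every PDT library was below every PBS library, beside 5.12%. Their log2 differences were -0.37 and -0.30 (adjusted p = 0.195 and 0.297 in edgeR). Of 17 translation factors 16 were tested, with a median of 0.15, 10 above 0 and 6 below. Mtres1, which rescues stalled mitochondrial ribosomes, differed by 0.79 (adjusted p = 0.111 in edgeR, no overlap). Tufm, the elongation factor that delivers aminoacyl-tRNA, differed by 0.41 (adjusted p = 0.209 in edgeR). Lrpprc differed by -0.36 (adjusted p = 0.244 in edgeR), and the groups overlapped in Tufm and Lrpprc. The 20 genes of mitochondrial tRNA charging (17 tRNA synthetases and the 3 subunits of the glutamyl-tRNA amidotransferase, Gatb, Gatc and Qrsl1) had a median of 0.01, and the 2 with the smallest p, Hars2 and Iars2, differed by -0.46 and -0.32 (adjusted p = 0.202 and 0.212 in edgeR). The 13 regulators of mitochondrial biogenesis had a median of -0.08. The coactivator Ppargc1a differed by -1.43 (adjusted p = 0.257 in edgeR) at 0.599 to 3.53 CPM in PBS and 0.684 to 1.02 in PDT, with overlap. Yy1 differed by -0.26 (adjusted p = 0.261 in edgeR, no overlap), and Nrf1 by 0.16, at 23.6 to 33.8 CPM in PBS and 29.5 to 32.1 in PDT.

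The messenger RNAs that the mitoribosome translates lay on the other side of 0. All 12 tested mitochondrially encoded mRNAs (of 13) had fold changes below 0, with a median of -0.59, and 7 (mt-Nd6, mt-Nd2, mt-Nd4, mt-Nd5, mt-Co1, mt-Co2 and mt-Atp6) had every PDT library below every PBS library, beside 5.12% of all tested genes. After the centred correction 1 of the 12, mt-Nd3, was above 0, at 0.13. mt-Nd6, the complex I subunit encoded on the opposite strand from the others, stood at 685, 684, 600.0 and 454 CPM in PBS and at 317, 366, 373 and 264 in PDT. Its groups did not overlap, and the log2 difference was -0.87 ± 0.16 (SE, adjusted p = 0.0515 in edgeR). It was called by DESeq2, by limma-voom and by edgeR without PBS replicate 4. EdgeR also called mt-Nd6 without the filter on low counts, with a filter of 1 CPM, with the replicate block and with halved counts. It did not call mt-Nd6 with the other scalings or when any library except PBS replicate 4 was left out. Neither form of the GC and length correction called it (centred, -0.75 ± 0.20, SE, adjusted p = 0.141 in edgeR). DESeq2 further called mt-Nd2, mt-Nd4, mt-Nd5, mt-Co1 and mt-Atp6, all lower in PDT, beside 5.24% of all tested genes. Without the filter on low counts edgeR also called mt-Nd2 and mt-Nd5, beside 1.95% of all genes. mt-Nd2, another complex I subunit, stood at 1792, 2311, 1428 and 1520 CPM in PBS and 904, 1317, 1191 and 904 in PDT, also with no overlap (-0.71 ± 0.18, SE, adjusted p = 0.101 in edgeR). Mean levels of mt-Co2, mt-Co3, mt-Atp6, mt-Nd3 and mt-Nd4l in PBS were 15.3, 16.4, 14.2, 5.18 and 1.16 CPM, against 11103 for mt-Co1. Their fold changes, 2 of the 7 above among them, are uncertain, since mitochondrial genes have near-identical nuclear copies and how the counting treated such reads was not tested. The 2 mitochondrial ribosomal RNAs, mt-Rnr1 and mt-Rnr2, differed by 0.25 and 0.59, but ribosomal RNA was removed from these libraries and PDT replicate 1 alone was far above the rest (1692 CPM of mt-Rnr2 against 474 to 678). Their counts are no measure of how many ribosomes were present.

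**Figure D5:**
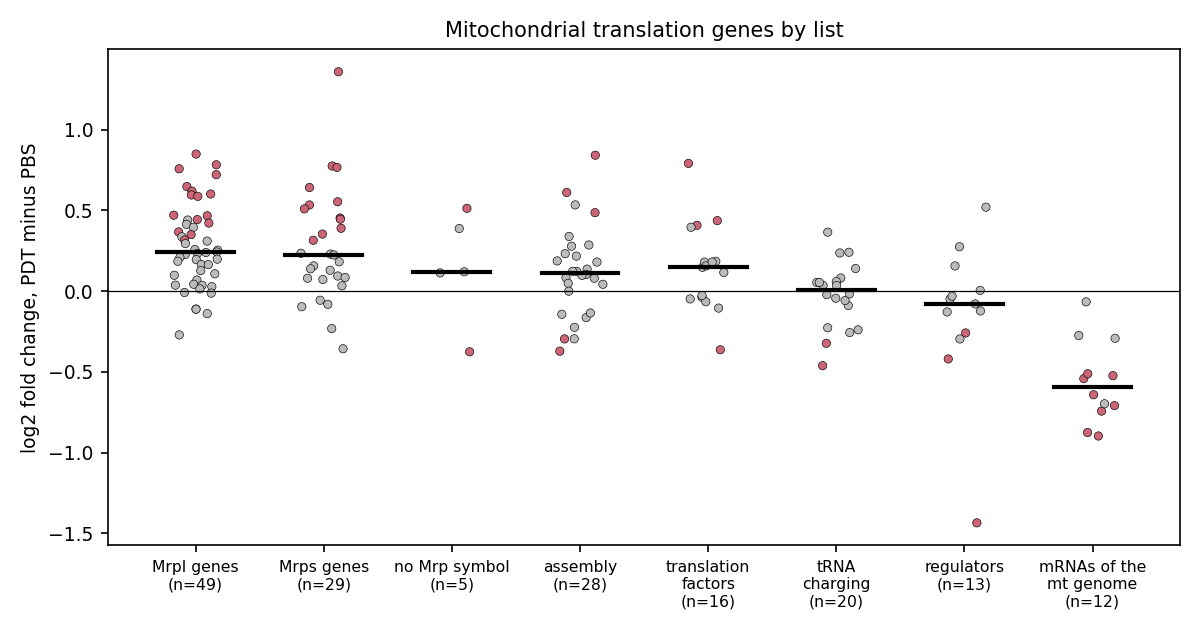
Log2 fold change (PDT minus PBS, vertical axis) of each gene in 8 lists of mitochondrial translation genes; black lines are medians and red points have an unadjusted edgeR p under 0.05. Both subunit lists have medians above 0 (0.24 and 0.22), and the mRNAs of the mitochondrial genome all lie below 0 with a median of -0.59.

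Of the 78 genes, 33 share exon sequence with another annotated gene (28 with one on the opposite strand and 8 with one on the same strand), and the strand setting of the counting is not given in the sources used here. Of the 29 genes that the rule for named genes chose, 16 share sequence in this way and 13 share none, so reads of the former may include those of the partner. Mrpl51 shares with Mir3098, Mrps34 with Nme3 and Mapk8ip3, Mrpl48 with Rab6a, Mrps25 with Nr2c2, Mrps26 with 4930473A02Rik and Mrps18b with Gm16279. The others of the 16 are Mrpl3, Mrpl10, Mrpl12, Mrpl47, Mrpl53, Mrpl58, Mrps6, Mrps18c, Mrps24 and Mrps30. Those that share none include Mrps21, Mrpl54, Mrpl41 and Mrps18a. The 6 pseudogene rows of this family held at most 172 reads in any library.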

How the data were processed

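Total RNA of 8 tumour libraries was depleted of ribosomal RNA and sequenced as directional libraries, per the labels' protocols. The values are raw read counts, in 1 table the authors deposited with a row for each gene. Per the submitters' processing notes, Cutadapt 4.6, STAR 2.7.11b and the build GRCm39 were used. How reads were counted, and whether by strand, is not given in the sources used here. Between 77.9% and 83.8% of counts from 1 to 20 were even, so both reads of a pair may have been counted.

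Genes were filtered with filterByExpr, scaled with TMM and tested with edgeR 4.0.16 (quasi-likelihood test, no covariate, Benjamini-Hochberg, threshold 0.05) in R 4.3.3, with DESeq2 1.42.0 and limma 3.58.1 as alternatives. Rows without a symbol numbered 484. Log2 CPM used a prior count of 2. The test was also run on simulated counts. These were drawn for each gene separately, without the spread that genes share between the real libraries, so no conclusion is drawn from them here. The biological coefficient of variation was 0.392. Lengths and GC content came from mouse GENCODE transcripts of the older build GRCm38 and were found for 98.1% of tested genes.

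Members and lists were chosen with earlier results of these data known. Named were, per subunit, genes past the threshold, the 5 (large) or 4 (small) highest and lowest by fold change, the 2 smallest p, the 2 highest and 1 lowest level per length, and 11 genes chosen for their place or role. Of each partner list, the 2 smallest p were named; other partners, other non-overlapping genes, the Mrps18 ratios and the 4 printed promoters were chosen after values were seen. Alternatives tried were other scalings, filters, tools, the replicate block, halved counts, removal of mitochondrially encoded genes, a GC and length correction, and leaving out each library.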

Additional observations from a re-analysis of the deposited data

Results flagged for a closer look

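In 6 of the 78 groups of 4 libraries examined, 1 library lay far from the other 3 by Dixon's ratio; chance flags about 1 in 20 groups. Of these 6, 3 concern PBS replicate 4: Mrpl54 at 38.6 CPM (the others 21.5 to 22.7), Mrps21 at 55.2 CPM (23.5 to 28.3) and the mean log2 CPM of the small subunit genes at 5.31 (5.003 to 5.05). Mrpl1 was at 36.2 CPM in PBS replicate 3 (the others 49.8 to 50.8). The mean log2 CPM of the mitochondrial tRNA charging genes was 4.15 in PDT replicate 4 (3.99 to 4.01), and that of the biogenesis regulators was 4.003 in PBS replicate 1 (4.64 to 4.69). Without PBS replicate 4, edgeR called 3 of the 78 genes, Mrpl54, Mrps21 and Mrps33, among 122 genes (0.712%).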

How the results depend on the processing

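Over the 21 alternatives the median log2 fold change of the 78 genes stayed above 0 (0.09 to 0.32) and 56 to 71 genes were above 0. The number called did not hold: all genes 39, members 0 and partner genes 0 in the analysis as reported. DESeq2 called 869 genes, 9 large and 3 small subunit genes and 8 partner genes. Without a filter on low counts there were 534, 6, 3 and 3. With a filter of 1 CPM 88 genes and 1 partner gene were called, with limma-voom 167, 1 small subunit gene and 1 partner gene, with halved counts 67 and 1 partner gene, and with upper quartile scaling 69 genes. Leaving out 1 library gave 0 to 122 genes, 0 to 1 large and 0 to 2 small subunit genes and 0 to 1 partner gene. By library, all genes called numbered 10, 4, 0 and 122 without PBS replicates 1 to 4 and 0, 112, 3 and 3 without PDT replicates 1 to 4; at 0 calls, 2349 and 2162 genes had an unadjusted p under 0.05. Without PDT replicate 2, Mrpl51 and Mrps21 were called.

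Whether the replicate numbers pair the libraries is not settled here (correlations of same-numbered libraries 0.038 to 0.069). With the replicate block 182 genes were called (1.1%), among them 4 large subunit genes (Mrpl41, Mrpl48, Mrpl51 and Mrpl54), 1 small subunit gene (Mrps21) and 1 partner gene. For every replicate number, the highest correlation with a library of another number (0.072 to 0.136) was above that of the same-numbered libraries. That highest value was picked from several pairs, so the comparison cannot decide whether the numbers pair the libraries. The GC and length correction called 13 genes as first run and 25 when centred; with the replicate block it called 34 (0.205%, with 1 small subunit gene, Mrps21) and 111 (0.669%, with Mrpl48, Mrpl51 and Mrps21).

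The large minus small difference changed by -0.15 between groups with the median over genes instead of 0.004 with the mean, and the per-length ratio in PBS was 1.39 with median transcript lengths.

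Changes of sign are listed here for the 29 named genes only. None of these whose fold change turned sign was called under the setting that turned it. Other genes of the 78 turned sign too. With the centred correction, for example, Mrpl28 went from 0.20 to -0.083 and Mrps17 from -0.056 to 0.14. Leaving out 1 library gave -0.096 to 0.12 for Mrpl35, -0.16 to 0.015 for Mrpl45, -0.059 to 0.13 for Mrpl53, -0.19 to 0.051 for Mrps30 and -0.20 to 0.0041 for Mrps6. Mrpl35 was at 0.00051 with upper quartile scaling and Mrpl53 at -0.034 in limma-voom. With the correction as first run, Mrpl35, Mrpl52, Mrpl53, Mrps30, Mrps24, Mrpl10 and Mrpl12 were at 0.030, -0.050, -0.28, 0.0013, -0.25, -0.18 and -0.11, and with the replicate block at 0.037, -0.041, -0.27, 0.011, -0.24, -0.17 and -0.12. Centred, Mrpl35, Mrpl53, Mrps30, Mrps24, Mrpl10 and Mrpl12 were at 0.12, -0.18, 0.094, -0.15, -0.083 and -0.019, and with the replicate block at 0.13, -0.18, 0.10, -0.15, -0.082 and -0.026. The cause of these changes was not tested.

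Depth did not limit detection of these genes, since each had at least 480 reads in every library; the number of libraries and the spread between them set the precision. All values are relative to the other RNA of a library and cannot show an amount per cell or per mitochondrion.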
